A study of Homo sapiens with 9 samples.

Results

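The retinoblastoma protein family and the DREAM complex were followed through their 10 genes, namely the pocket protein genes RB1, RBL1 and RBL2, the E2F partner genes TFDP1 and TFDP2, and the MuvB core genes LIN9, LIN37, LIN52, LIN54 and RBBP4. They were chosen by gene symbol from the transcript tables, which list 60966 genes, and the values of all transcripts of a gene were added up. All 10 were found, each under 1 gene identifier, and all 10 were among the 14985 genes with at least 1 FPKM (fragments per kilobase of transcript, scaled to the number of mapped fragments) in at least 3 samples. RNA-seq was carried out in H1299, a human non-small cell lung carcinoma cell line grown in culture, harvested 48 h after transfection. The cells received a scrambled control siRNA (Scramble), or 1 of a pair of siRNAs against the mRNA of FIBP (Si-FIBP#1 and Si-FIBP#2), with 3 samples in each group. All samples thus came from 1 line and all were transfected. The series calls the samples independent, without saying that they were separate cultures, so the p-values measure the spread between these samples, which may be technical.

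Pocket proteins bind E2F transcription factors and keep their target genes silent until cyclin-dependent kinases phosphorylate the pocket protein late in G1. E2F factors bind DNA as dimers with a DP protein, which TFDP1 and TFDP2 encode. In quiescent cells RBL2 or RBL1, a repressor E2F, a DP protein and the MuvB core form the DREAM complex, which represses genes of the cell cycle, and in dividing cells the same core joins B-MYB and FOXM1 and activates genes of G2 and mitosis.

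The targeted gene was checked first. FIBP was at 88.38, 79.49 and 77.74 FPKM with Scramble, at 7.49, 7.77 and 4.30 after Si-FIBP#1, and at 7.13, 5.92 and 8.21 after Si-FIBP#2. Its mean thus stood at 7.96% and 8.66% of the Scramble mean. Of 7 markers listed for a carcinoma line, the keratins KRT8 (67.15 to 108.14 FPKM) and KRT18 (142.89 to 483.13 FPKM) were expressed in every sample and KRT7 was lower (4.50 to 9.32 FPKM). The epithelial markers CDH1, EPCAM and KRT19 were at or below 0.29 FPKM, and VIM, a mesenchymal marker, was at 1592 to 3369 FPKM. Of the 4 markers high enough to test, 3 fell with each siRNA, with a median log2 fold change of -0.51 after Si-FIBP#1 and -0.60 after Si-FIBP#2. Of all tested genes, 19.9% and 17.7% fell with the siRNAs in turn, and the medians over all of them were 0.07 and 0.11. KRT18 went from 476 ± 8 (SD, n = 3) to 208.7 ± 16.4 and 174.8 ± 28.4 FPKM, KRT8 from 106.6 ± 2.0 to 73.4 ± 2.8 and 75.9 ± 8.5, and VIM from 3232 ± 119 to 2307 ± 144 and 1988 ± 345, while KRT7 did not pass (adjusted p = 0.131 and 0.119 by limma). The summed level of the 7, most of it VIM, was 3736 to 3962 FPKM with Scramble, 2439 to 2764 after Si-FIBP#1 and 1807 to 2510 after Si-FIBP#2, and the part of these markers in the results below was not tested. The 7 markers of blood, endothelial and liver cells reached at most 1.00 FPKM each. Depth, estimated from the steps of low FPKM values, was 20150000 to 23850000 fragments per sample.

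Start-site sequences are shown for 5 genes, because E2F and MuvB complexes act at promoters. All 10 genes had at least 1 entry in the RefSeq promoter table, with 18 entries in all. RBL1, TFDP1 and LIN52 are shown because their windows hold an E2F-like run, LIN54 for its CHR-like run, and LIN37, by the first of its listed start sites, as the gene that rose. The choice was made after the values were seen, so the windows shown cannot be used to pair a motif with a direction. The genes shown with a motif all fell, and the windows of RBL2, TFDP2, LIN9 and LIN37 that hold a CHR-like run are not printed. Each window runs from 250 bases before a RefSeq start site to 50 bases from the start on (GRCh38.p14, read 5′ to 3′ on the strand of the gene). Capitals mark letters that match 1 of 4 E2F-like motifs (TTTCCCGC or TTTCGCGC or TTTGCCGC or TTTGGCGC) or 1 of 2 CHR-like motifs (TTTGAA or TTCGAA, as in the cell cycle gene homology region that LIN54 binds), on either strand.
RBL1, chr20:37095948-37096247, minus strand: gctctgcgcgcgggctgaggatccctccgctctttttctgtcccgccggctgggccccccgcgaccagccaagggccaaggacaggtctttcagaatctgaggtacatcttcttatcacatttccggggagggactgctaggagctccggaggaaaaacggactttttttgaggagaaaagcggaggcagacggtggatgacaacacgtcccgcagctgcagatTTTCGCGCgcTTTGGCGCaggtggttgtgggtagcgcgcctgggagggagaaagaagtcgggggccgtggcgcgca
TFDP1, chr13:113584503-113584802, plus strand: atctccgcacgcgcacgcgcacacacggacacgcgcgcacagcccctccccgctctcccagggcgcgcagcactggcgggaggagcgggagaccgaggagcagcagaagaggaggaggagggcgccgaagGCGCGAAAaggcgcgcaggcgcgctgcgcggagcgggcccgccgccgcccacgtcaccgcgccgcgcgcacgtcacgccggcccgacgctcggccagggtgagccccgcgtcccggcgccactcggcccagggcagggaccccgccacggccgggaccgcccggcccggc
LIN52, chr14:74084706-74085005, plus strand: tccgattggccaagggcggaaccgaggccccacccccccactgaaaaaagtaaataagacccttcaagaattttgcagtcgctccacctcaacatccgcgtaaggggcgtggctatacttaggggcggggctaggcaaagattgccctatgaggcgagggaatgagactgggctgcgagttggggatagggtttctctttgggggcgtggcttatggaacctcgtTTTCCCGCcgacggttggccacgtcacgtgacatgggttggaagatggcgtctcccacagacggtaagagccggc
LIN54, chr4:83010774-83011073, minus strand: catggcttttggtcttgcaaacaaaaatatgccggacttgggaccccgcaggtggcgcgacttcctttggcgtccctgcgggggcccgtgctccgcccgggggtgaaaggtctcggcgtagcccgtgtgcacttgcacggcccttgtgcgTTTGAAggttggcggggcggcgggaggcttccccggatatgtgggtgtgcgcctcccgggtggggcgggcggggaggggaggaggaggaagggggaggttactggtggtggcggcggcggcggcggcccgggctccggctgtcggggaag
LIN37, chr19:35748326-35748625, plus strand: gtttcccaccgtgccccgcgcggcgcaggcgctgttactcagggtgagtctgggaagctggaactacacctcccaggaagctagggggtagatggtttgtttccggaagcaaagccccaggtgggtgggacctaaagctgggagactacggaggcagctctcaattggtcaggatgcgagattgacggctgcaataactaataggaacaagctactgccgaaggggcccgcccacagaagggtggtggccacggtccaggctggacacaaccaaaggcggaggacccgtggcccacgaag

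With the start site as position 0, the RBL1 window held TTTCGCGC from -26 to -19 and TTTGGCGC from -16 to -9, side by side and without overlap. The TFDP1 window held TTTCGCGC on the reverse strand from -120 to -113, and the LIN52 window held TTTCCCGC from -25 to -18. No other window of the 10 genes held an E2F-like motif, and among the genes without one LIN9, LIN54 and RBBP4 also fell. RB1 fell as well, but its window does not cover its main promoter, so it is not counted here. Of all 35116 RefSeq windows, 3.31% held at least 1 of the 4. This share and those below are per window, and the 10 genes have 18 windows, so they cannot be set against numbers of genes. LIN54 held TTTGAA once, from -100 to -95 of the start site shown and from -89 to -84 of another in a window that overlaps it almost fully. These start sites lie 2103 and 2092 bases inside the gene as GENCODE 29 draws it. TTTGAA was also in windows of LIN9, which fell, of RBL2 and TFDP2, which did not pass, and of LIN37, which rose, there from -182 to -177 of the later of its listed start sites. It was in 15.2% of all windows. TTCGAA was in 1 LIN9 window and in 1.45% of all. The start site of the only RefSeq window for RB1 lies 172724 bases inside the gene, so the main RB1 promoter was not searched. A match is a run of letters and not a measured binding site.

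Most of the 10 genes were lower after FIBP depletion, and they were lower with either siRNA. In the test across all genes (limma on log2(FPKM + 1), adjusted p below 0.05), 7 of 10 fell, 1 rose and 2 did not pass after Si-FIBP#1, where 19.9% of all tested genes fell and 27.8% rose. The counts were the same after Si-FIBP#2, namely 7 lower, 1 higher and 2 that did not pass, where 17.7% of all tested genes fell and 31.1% rose. RB1, RBL1, TFDP1, LIN9, LIN52, LIN54 and RBBP4 fell, LIN37 rose, and RBL2 and TFDP2 did not pass. The median log2 fold change of the 10 genes was -0.49 after Si-FIBP#1 and -0.44 after Si-FIBP#2, beside 0.07 and 0.11 over all tested genes. Both comparisons use the same Scramble samples. In 7 of the 10 genes, all 6 samples with a FIBP siRNA lay below all 3 Scramble samples, as in 16.5% of all tested genes, and in LIN37 all 6 lay above, as in 26.3%. In bulk RNA, fewer cells that express a gene and less of its mRNA per cell cannot be told apart.

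None of the 10 genes reached a change of 2-fold on the scale of log2(FPKM + 1) at any p. The study's own rule asks for a fold change over 2 beside the adjusted p and does not name this scale. On plain FPKM the mean of LIN52 was at 48.3% and 47.4% of Scramble. On log2(FPKM + 1), a change over 2-fold with an adjusted p below 0.05 was found for 5.66% of all tested genes after Si-FIBP#1 and 5.05% after Si-FIBP#2. The changes were thus between 0.18 and 0.98 in size on the log2 scale where they passed. When samples were rescaled by their median ratio, the split of all called genes changed from 4170 higher and 2976 lower to 3356 higher and 3595 lower after Si-FIBP#1, and from 4653 and 2656 to 3328 and 3667 after Si-FIBP#2. This scaling moved the all-gene median from 0.11 to 0.005 after Si-FIBP#2, and still gave 7 lower and 1 higher among the 10 genes with each siRNA.

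**Figure D1:**
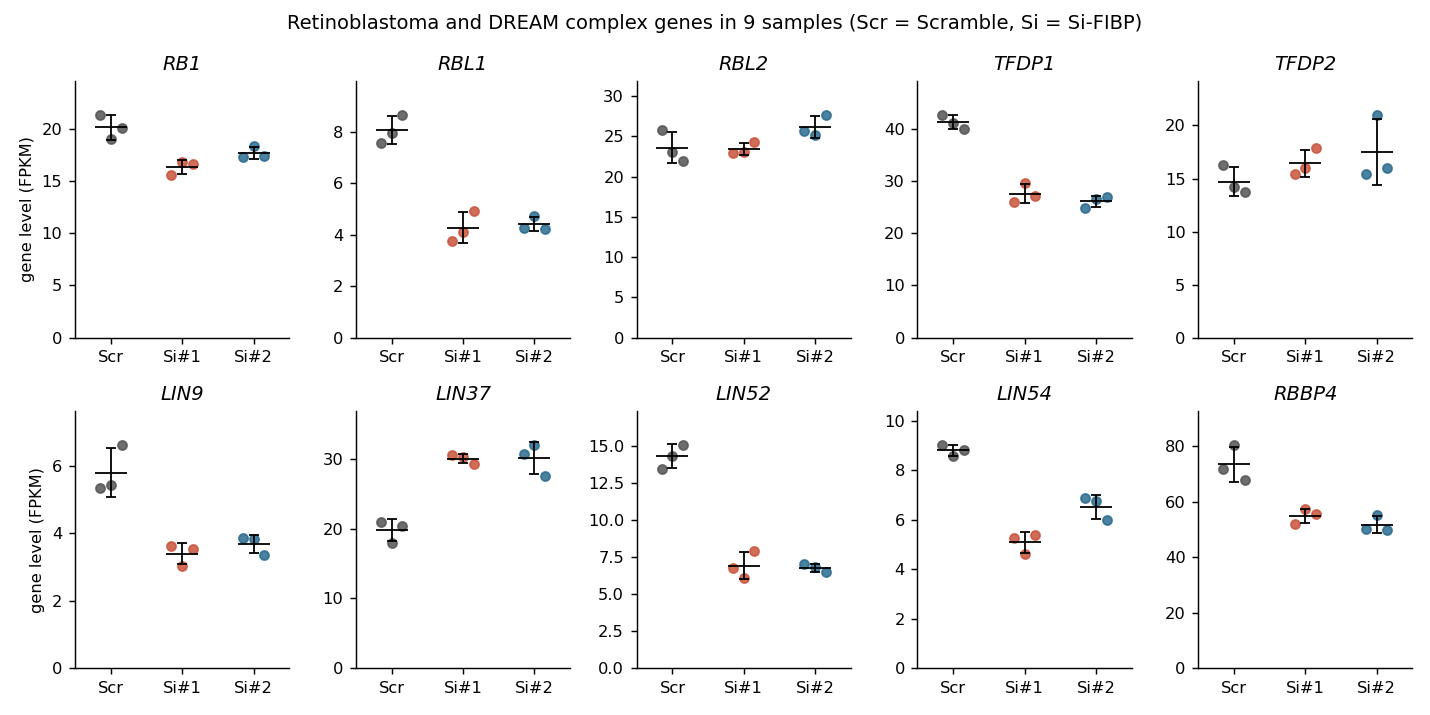
Gene level in FPKM (vertical axes, from 0) of the 10 genes in the 9 samples, by group; points are samples, bars the mean and SD of 3. All siRNA samples lie below Scramble for 7 genes and above it for LIN37, while RBL2 and TFDP2 overlap.

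Among the pocket proteins, RBL1 changed most. RBL1, which encodes p107 and is itself known as an E2F target, lies on chromosome 20 (minus strand, 36996349 to 37095995, GENCODE 29 on GRCh38). It was at 7.56, 7.97 and 8.67 FPKM with Scramble, at 3.77, 4.09 and 4.94 after Si-FIBP#1, and at 4.28, 4.73 and 4.22 after Si-FIBP#2. Every siRNA sample was below every Scramble sample, by a wide gap against the spread within groups. The mean fell to 52.9% of Scramble after Si-FIBP#1, a log2 fold change of -0.79 ± 0.10 (SE, adjusted p = 0.000201 by limma), and to 54.7% after Si-FIBP#2, at -0.74 ± 0.10 (adjusted p = 0.000284). Nearly all of it came from 1 coding transcript, ENST00000373664, at 7.82 ± 0.42 (SD, n = 3), 4.12 ± 0.36 and 4.34 ± 0.15 FPKM in the 3 groups.

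RB1, the retinoblastoma tumour suppressor itself (chromosome 13, plus strand, 48303726 to 48599436), fell far less. It was at 21.34, 18.97 and 20.06 FPKM with Scramble, at 15.59, 16.77 and 16.64 after Si-FIBP#1, and at 17.30, 18.33 and 17.40 after Si-FIBP#2. The groups did not overlap, but the highest siRNA sample (18.33) came close to the lowest Scramble sample (18.97). After Si-FIBP#1 its log2 fold change was -0.28 ± 0.06 (SE, adjusted p = 0.00527 by limma). After Si-FIBP#2 the change was -0.18 ± 0.06 (adjusted p = 0.0458), and this call was lost in 11 of 18 alternative analyses. These include leaving out Scramble replicate 1 (-0.14, adjusted p = 0.149), Scramble replicate 3 (0.0981), Si-FIBP#1 replicate 2 (0.0634), Si-FIBP#1 replicate 3 (0.058), Si-FIBP#2 replicate 1 (0.111) or Si-FIBP#2 replicate 3 (0.115), all adjusted p by limma. The main coding transcript, ENST00000267163, gave 18.3, 15.4 and 16.2 FPKM in the 3 groups and passed after Si-FIBP#1 (adjusted p = 0.0379) but not after Si-FIBP#2 (adjusted p = 0.13).

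RBL2, which encodes p130, the pocket protein of DREAM in quiescent cells, did not pass the test (chromosome 16, plus strand, 53433977 to 53491649). It was at 25.74, 23.00 and 21.99 FPKM with Scramble, at 22.87, 23.06 and 24.23 after Si-FIBP#1, and at 25.68, 25.10 and 27.70 after Si-FIBP#2. The groups overlapped, and Scramble replicate 1 lay within the range of the Si-FIBP#2 samples. The log2 fold change was -0.01 after Si-FIBP#1 (95% interval -0.17 to 0.15, adjusted p = 0.932) and 0.15 after Si-FIBP#2 (-0.01 to 0.30, adjusted p = 0.115 by limma). Without Scramble replicate 1 the second one became 0.21 and passed (adjusted p = 0.0368). The main coding transcript, ENST00000262133, was at 17.08, 14.71 and 16.10 FPKM with Scramble and at 19.60, 18.26 and 19.06 after Si-FIBP#2, without overlap. It did not pass with either siRNA (adjusted p = 0.575 and 0.0575 by limma). The retained-intron transcript ENST00000562850 was at 4.34 FPKM in Scramble replicate 1, and at 2.88 and 2.12 in the other Scramble samples. RBL2 shares 610 exonic bases with AKTIP on the opposite strand, a gene that was at 12.2 ± 0.2 FPKM (SD, n = 3) with Scramble and at 4.20 ± 0.54 and 4.72 ± 1.02 with the siRNAs, and the sources used here do not say whether reads were assigned by strand.

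The levels of the pocket protein genes therefore stood in another ratio after FIBP depletion. In FPKM, which is per length, RBL2 was 2.54 to 3.41 times RBL1 with Scramble, 4.91 to 6.07 times after Si-FIBP#1 and 5.31 to 6.56 times after Si-FIBP#2. The ranges of the siRNA groups overlapped each other and not that of Scramble. RB1 was 2.31 to 2.82 times RBL1 with Scramble and 3.37 to 4.14 times in the 6 siRNA samples. These ratios were picked after the levels were seen and are given as a description.

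The genes whose log2 levels over the 9 samples ran closest to RBL1 were STAG1, a cohesin subunit (Pearson r = 0.996), PTGES3, a co-chaperone of HSP90 (0.993), and TNPO3, a nuclear import receptor (0.991). Closest to RB1 were MBD4, a DNA glycosylase (0.976), GTPBP3 (0.965) and ARL6IP1 (0.964), and closest to RBL2 were STX1A (0.954), RCN3 (0.95) and ZNF827 (0.939). The points share 3 groups, so such values rest largely on the difference between groups, and they are the highest among 14985 genes.

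Of the E2F partner genes, TFDP1 fell and TFDP2 did not pass the test. TFDP1, which encodes DP1 (chromosome 13, plus strand, 113584721 to 113641470), was at 42.70, 41.11 and 39.99 FPKM with Scramble, at 26.00, 29.63 and 27.07 after Si-FIBP#1, and at 24.89, 26.46 and 26.91 after Si-FIBP#2. All siRNA samples were at least 10 FPKM below the lowest Scramble sample. TFDP1 fell to 66.8% of Scramble after Si-FIBP#1 (log2 fold change -0.57 ± 0.06, SE, adjusted p = 8.33e-05 by limma) and to 63.2% after Si-FIBP#2 (-0.64 ± 0.06, adjusted p = 4.03e-05).

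Most of the TFDP1 signal was in transcripts that the authors assembled from reads, which made up 77.8% of it with Scramble, 71.2% after Si-FIBP#1 and 77.4% after Si-FIBP#2. The most abundant, MSTRG.7366.8 (2541 nt), went from 11.7 ± 1.2 (SD, n = 3) to 6.22 ± 1.06 and 5.90 ± 0.44 FPKM and fell with each siRNA (adjusted p = 0.0026 and 0.002 by limma). The annotated coding transcript ENST00000375370 (2639 nt) was at 5.14 ± 2.48, 5.71 ± 1.53 and 3.72 ± 0.45 FPKM and did not pass (adjusted p = 0.694 and 0.526). With annotated transcripts alone, TFDP1 no longer passed, at -0.19 after Si-FIBP#1 (adjusted p = 0.495) and -0.55 after Si-FIBP#2 (adjusted p = 0.0533). The call for this gene thus rests on the assembled transcripts, which did not all pass alone. MSTRG.7366.12 was at 8.95, 6.14 and 6.25 FPKM in the 3 groups and did not pass (adjusted p = 0.13 and 0.18 by limma). Nor did MSTRG.7366.2, at 6.18, 4.92 and 6.73 FPKM (adjusted p = 0.409 and 0.772). MSTRG.7366.3 went from 5.13 to 2.24 and 0.82 FPKM and passed after Si-FIBP#2 only (adjusted p = 0.0766 and 0.00496).

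TFDP2, which encodes DP2 (chromosome 3, minus strand, 141944428 to 142149544), was at 16.23, 14.21 and 13.70 FPKM with Scramble, at 15.45, 15.98 and 17.88 after Si-FIBP#1, and at 15.47, 21.03 and 15.99 after Si-FIBP#2. The groups overlapped and Si-FIBP#2 replicate 2 stood above the rest. The log2 fold change was 0.15 (95% interval -0.11 to 0.41, adjusted p = 0.315) and 0.23 (-0.04 to 0.49, adjusted p = 0.137 by limma) with the siRNAs in turn. None of its 7 tested transcripts passed with either siRNA (limma, 2 and 1 of them with an unadjusted p below 0.05). TFDP2 transcript ENST00000495095, a processed transcript of 575 nt, was at 3.83 FPKM in Scramble replicate 1 and listed at 0 in all other samples. The overlap of the groups rests on it. The other Scramble samples (14.21 and 13.70) lay below all siRNA samples, and without this transcript Scramble replicate 1 would too. TFDP2 passed with neither siRNA in any of the 18 alternative analyses. The ratio of TFDP1 to TFDP2 was 2.63 to 2.92 with Scramble, 1.51 to 1.85 after Si-FIBP#1 and 1.26 to 1.68 after Si-FIBP#2. This ratio, too, rests on the assembled TFDP1 transcripts. With annotated transcripts alone TFDP1 was below TFDP2 in every sample, at 0.51 to 0.80 times its level with Scramble, 0.39 to 0.57 times after Si-FIBP#1 and 0.30 to 0.42 times after Si-FIBP#2, and the Scramble and Si-FIBP#1 ranges overlapped.

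**Figure D2:**
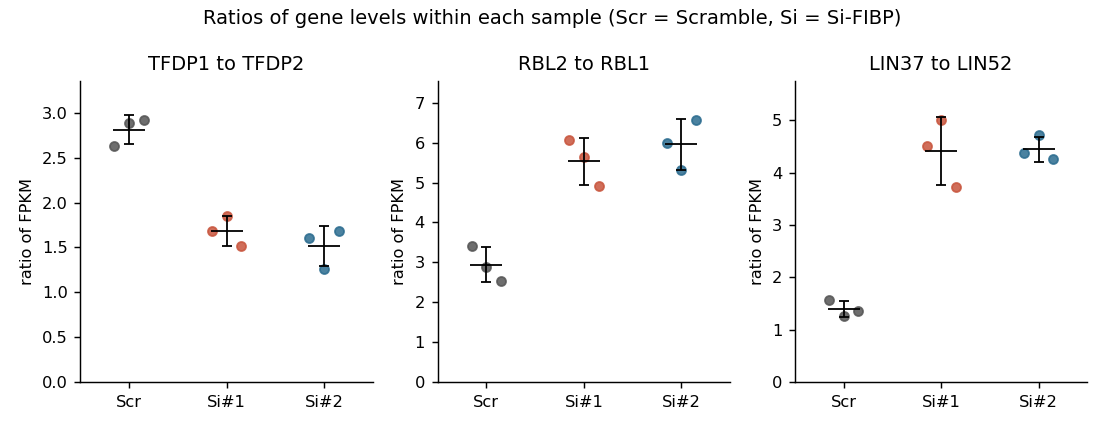
Ratio of FPKM within each sample (vertical axes, from 0) for TFDP1 to TFDP2, RBL2 to RBL1 and LIN37 to LIN52; points are samples, bars the mean and SD of 3. In each panel the Scramble samples lie apart from all 6 siRNA samples, as for LIN37 to LIN52 with 1.25 to 1.56 against 3.72 to 5.00. With annotated transcripts alone, which are not plotted, TFDP1 to TFDP2 was at 0.51 to 0.80 with Scramble and 0.39 to 0.57 after Si-FIBP#1, which overlap.

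Within the MuvB core, LIN52 fell and LIN37 rose, and these were the largest changes in each direction among the 10 genes. LIN52, the subunit whose phosphorylation lets the core bind a pocket protein, lies on chromosome 14 (plus strand, 74084796 to 74201235). It was at 13.47, 14.35 and 15.10 FPKM with Scramble, at 6.79, 6.07 and 7.88 after Si-FIBP#1, and at 7.04, 6.80 and 6.50 after Si-FIBP#2. Every siRNA sample was far below the lowest Scramble sample. The mean fell to 48.3% and 47.4% of Scramble, a log2 fold change of -0.96 ± 0.09 after Si-FIBP#1 (SE, adjusted p = 3.43e-05 by limma) and -0.98 ± 0.09 after Si-FIBP#2 (adjusted p = 3.27e-05). On FPKM without a pseudocount this is more than 2-fold, and with a pseudocount of 0.1 LIN52 was past 2-fold with each siRNA.

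Its transcripts did not all fall alike. ENST00000674221 (1798 nt), the most abundant LIN52 transcript, went from 8.67, 7.75 and 7.69 FPKM with Scramble to 3.81, 3.08 and 4.05 after Si-FIBP#1 and 4.27, 2.45 and 2.89 after Si-FIBP#2, and it fell with each siRNA (adjusted p = 0.0045 and 0.0022 by limma). The assembled MSTRG.8002.6 (2846 nt) went from 2.41 ± 0.77 (SD, n = 3) to 0.41 ± 0.59 and 0.47 ± 0.44 FPKM (log2 fold change -1.33 and -1.24, adjusted p = 0.0261 and 0.0366). With a pseudocount of 0.1 the fold changes were larger in size (-2.99 and -2.62) but no longer passed (adjusted p = 0.0902 and 0.136). MSTRG.8002.6 reached 1 FPKM in the 3 Scramble samples and in 1 with a siRNA, so it entered the test through the group where it is high. ENST00000555028 (2776 nt) was at 2.69 ± 0.70, 2.24 ± 0.58 and 2.23 ± 0.83 FPKM and did not pass (adjusted p = 0.613 and 0.58). Its share of the LIN52 signal was 18.8% with Scramble, 32.4% after Si-FIBP#1 and 32.8% after Si-FIBP#2.

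LIN37, a subunit needed for repression by DREAM, lies on chromosome 19 (plus strand, 35748361 to 35754519). It was at 21.05, 17.97 and 20.44 FPKM with Scramble, at 30.62, 30.35 and 29.33 after Si-FIBP#1, and at 30.76, 32.09 and 27.64 after Si-FIBP#2. All siRNA samples were above all Scramble samples. The mean rose to 151.9% of Scramble after Si-FIBP#1 (log2 fold change 0.58 ± 0.08, SE, adjusted p = 0.000219 by limma) and to 152.2% after Si-FIBP#2 (0.58 ± 0.08, adjusted p = 0.000217). The rise was in the main coding transcript ENST00000301159 (935 nt), from 16.66, 14.96 and 14.57 FPKM to 24.65, 25.78 and 23.17, and to 23.33, 24.57 and 22.47 with the second siRNA. The transcript annotated for nonsense-mediated decay, ENST00000595455, was at 2.01, 2.28 and 1.75 FPKM and did not pass (adjusted p = 0.713 and 0.662).

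LIN37 sits close to other expressed genes. Its exons share 752 bases with AD000671.1 on the same strand, through a read-through transcript (ENST00000591613) that was at 0.44 to 1.58 FPKM, and 1180 bases with AD000671.3 on the opposite strand, which was at 0.26 to 0.83 FPKM. AD000671.1 as a whole was at 173.2 to 250.6 FPKM, mostly in assembled transcripts whose positions are not in the tables, and it also rose (log2 fold change 0.36, adjusted p = 0.000446, and 0.41, adjusted p = 0.000205, by limma). PSENEN, a subunit of gamma-secretase encoded by the gene just before LIN37, rose from 39.8 ± 1.7 (SD, n = 3) to 61.4 ± 4.1 and 59.9 ± 0.9 FPKM (adjusted p = 3.5e-05 and 5.18e-05). The part of these neighbours in the LIN37 values was not tested.

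LIN9, a scaffold of the core (chromosome 1, minus strand, 226231149 to 226309869), was at 5.36, 5.44 and 6.64 FPKM with Scramble, at 3.63, 3.03 and 3.54 after Si-FIBP#1, and at 3.85, 3.83 and 3.37 after Si-FIBP#2. The groups did not overlap. LIN9 fell by 0.63 ± 0.11 (SE) on the log2 scale after Si-FIBP#1 (adjusted p = 0.00101 by limma) and by 0.54 ± 0.11 after Si-FIBP#2 (adjusted p = 0.00246). The 3 of its coding transcripts that were high enough to test each had lower means with the siRNAs, and none passed alone, with adjusted p from 0.088 to 0.868 by limma and 1 and 1 of the 3 with an unadjusted p below 0.05.

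LIN54, the DNA-binding subunit that contacts CHR sites (chromosome 4, minus strand, 82909973 to 83012926), was at 9.04, 8.57 and 8.82 FPKM with Scramble, at 5.27, 4.60 and 5.40 after Si-FIBP#1, and at 6.87, 6.75 and 5.98 after Si-FIBP#2. All siRNA samples were below Scramble, and all Si-FIBP#1 samples were below all Si-FIBP#2 samples. It fell to 57.8% of Scramble after Si-FIBP#1 (log2 fold change -0.69 ± 0.08, SE, adjusted p = 0.000146 by limma) and to 74.2% after Si-FIBP#2 (-0.38 ± 0.08, adjusted p = 0.00447). In ENST00000446851 (4083 nt) the mean went from 2.73 ± 0.28 (SD, n = 3) to 0.93 ± 0.31 and 1.11 ± 0.52 FPKM, and it fell with each siRNA (adjusted p = 0.0151 and 0.0254). The longer ENST00000340417 (6121 nt) was at 2.64 ± 0.43, 1.94 ± 0.38 and 2.36 ± 0.11 FPKM and did not pass (adjusted p = 0.167 and 0.644).

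RBBP4, a histone-binding protein that also serves in NuRD, PRC2 and chromatin assembly complexes, was the most abundant of the 10 (chromosome 1, plus strand, 32651142 to 32686211). It was at 71.86, 80.60 and 68.00 FPKM with Scramble, at 52.01, 57.22 and 55.45 after Si-FIBP#1, and at 50.18, 55.21 and 49.81 after Si-FIBP#2. The groups did not overlap. RBBP4 fell to 74.7% of Scramble after Si-FIBP#1 (log2 fold change -0.41 ± 0.07, SE, adjusted p = 0.00133 by limma) and to 70.4% after Si-FIBP#2 (-0.50 ± 0.07, adjusted p = 0.000439). The coding transcript ENST00000458695 (1674 nt) fell from 24.5 ± 1.0 (SD, n = 3) to 14.5 ± 1.5 and 15.3 ± 2.9 FPKM (adjusted p = 0.0056 and 0.0087). Another coding transcript, ENST00000373485 (1417 nt), was at 13.9 ± 2.5, 14.2 ± 1.9 and 12.4 ± 1.3 FPKM and did not pass (adjusted p = 0.917 and 0.521). The paralogue RBBP7 also fell, from 131.9 ± 5.1 to 104.4 ± 5.3 and 115.9 ± 4.3 FPKM, and the listed RBBP4 pseudogenes reached at most 0.10 FPKM.

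**Figure D3:**
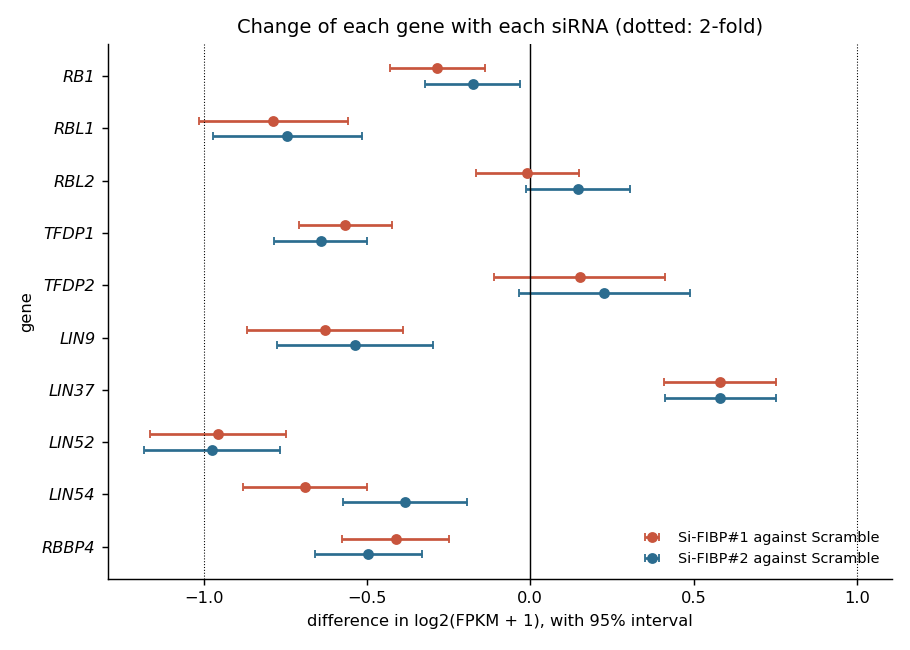
Difference in log2(FPKM + 1) from Scramble (horizontal axis) with its 95% interval from limma, for the 10 genes and each siRNA; dotted lines mark 2-fold. The estimates run from -0.98 for LIN52 to 0.58 for LIN37, and for RBL2 and TFDP2 the intervals include 0.

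Ordered by their level with Scramble, in FPKM per gene, the 10 genes ran from RBBP4 (73.5 ± 6.5, SD, n = 3) through TFDP1 (41.3 ± 1.4), RBL2 (23.6 ± 1.9), RB1 (20.1 ± 1.2), LIN37 (19.8 ± 1.6), TFDP2 (14.7 ± 1.3), LIN52 (14.3 ± 0.8), LIN54 (8.81 ± 0.24) and RBL1 (8.07 ± 0.56) to LIN9 (5.81 ± 0.72). The ranges of 3 pairs of neighbours overlapped, RB1 with LIN37, TFDP2 with LIN52, and LIN54 with RBL1. The place of TFDP1 rests on assembled transcripts, since its annotated ones summed to a mean of 9.17 FPKM with Scramble, below those of TFDP2 (13.98) and LIN52 (11.9). With the siRNAs, the mean of LIN37 (30.1 ± 0.7 and 30.2 ± 2.3) was above those of TFDP1 (27.6 ± 1.9 and 26.1 ± 1.1) and RBL2 (23.4 ± 0.7 and 26.2 ± 1.4). The ranges of LIN37 and TFDP1 overlapped after Si-FIBP#1 (29.33 against 29.63), and those of LIN37 and RBL2 after Si-FIBP#2 (27.64 against 27.70). LIN37 was 1.25 to 1.56 times LIN52 with Scramble, 3.72 to 5.00 times after Si-FIBP#1 and 4.25 to 4.72 times after Si-FIBP#2.

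The 10 genes have 117 listed transcripts, 15 of them assembled by the authors, and 44 were high enough to test. Of the 44, 9 fell and 1 rose after Si-FIBP#1, where 10% of all 47662 tested transcripts fell and 10.7% rose. The same numbers, 9 and 1, fell and rose after Si-FIBP#2, where 8.46% fell and 10.6% rose. The 1 that rose was ENST00000301159 of LIN37 with both siRNAs. Among those that fell after Si-FIBP#2, ENST00000544902 of TFDP1 reached 1 FPKM in the Scramble samples alone, so it entered the test only through the group where it is high. With a pseudocount of 0.1 its call was lost (-2.23, adjusted p = 0.0689 by limma, against -0.80 and 0.0336), as were those of MSTRG.8002.6 of LIN52 with each siRNA, and both stand among the falls counted above.

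**Figure D4:**
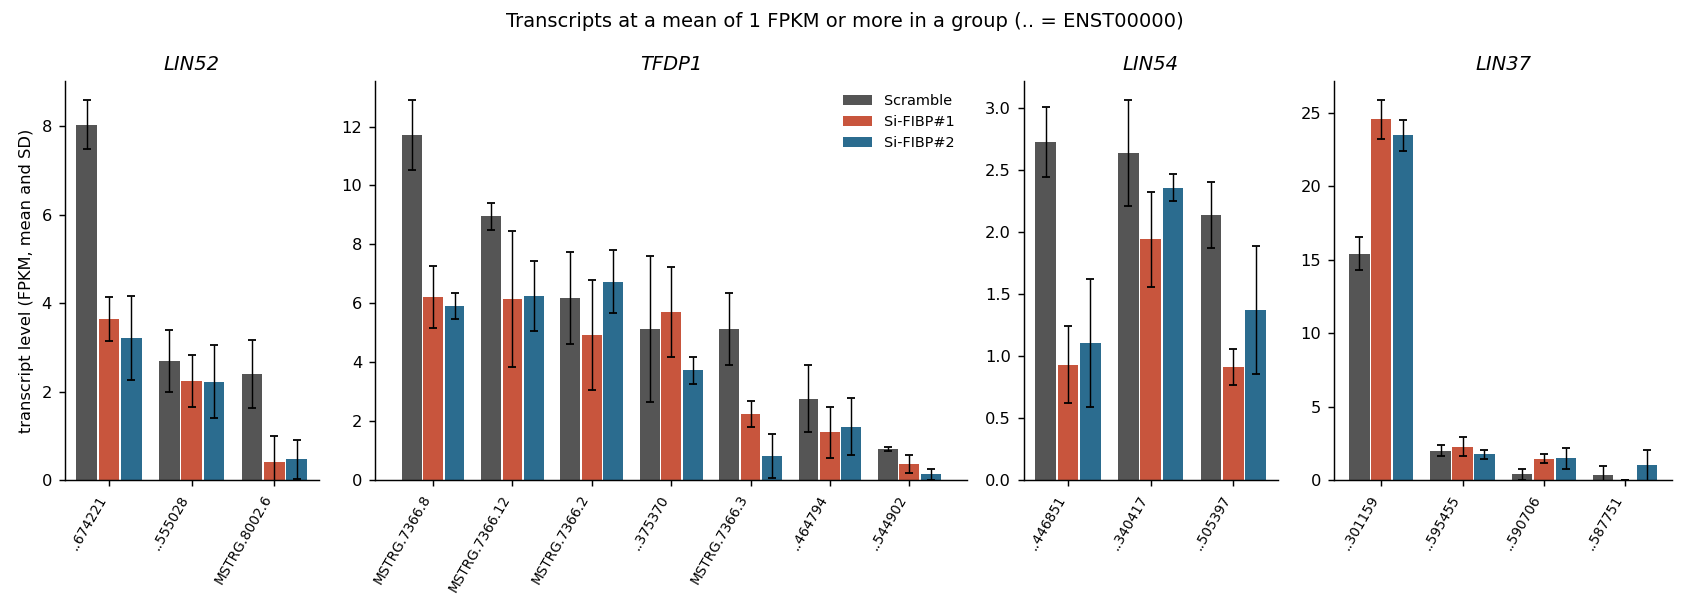
Mean level in FPKM (vertical axes, from 0; error bars SD of 3 samples) of the LIN52, TFDP1, LIN54 and LIN37 transcripts that reach a mean of 1 FPKM in a group. ENST00000674221 of LIN52, MSTRG.7366.8 of TFDP1 and ENST00000446851 of LIN54 are lower with each siRNA, and ENST00000301159 of LIN37 is higher.

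The siRNAs were then compared with each other. Of the 10 genes, 1 passed in this comparison and 9 did not, where 9.58% of all tested genes were higher after Si-FIBP#2 than after Si-FIBP#1 and 5.8% were lower. This count is near the background. The gene was LIN54, whose level was higher after Si-FIBP#2 by 0.31 ± 0.08 on the log2 scale (SE, 95% interval 0.12 to 0.50, adjusted p = 0.0382 by limma). That call was lost in 13 of 18 alternative analyses, with adjusted p from 0.0264 to 0.13 over all 18, and among the samples only the omission of Si-FIBP#2 replicate 3 left it in place (adjusted p = 0.0467). For the other genes the 95% interval of the difference between the siRNAs reached at most 0.34 in size, the widest being that of TFDP2 (0.08, 95% interval -0.19 to 0.34). With both siRNAs pooled, 7 of the 10 genes fell and 1 rose, where 20.3% of all tested genes fell and 32.6% rose.

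Genes for the transcription factors that bind these proteins had a lower median than the 10 genes. Of 11 genes for E2F factors, MYB proteins and FOXM1, 9 fell and 1 rose with each siRNA, and the median log2 fold change was -1.20 after Si-FIBP#1 and -0.93 after Si-FIBP#2. Of all tested genes, 19.9% fell and 27.8% rose after Si-FIBP#1, and 17.7% fell and 31.1% rose after Si-FIBP#2. MYBL2, which encodes B-MYB, the activating partner of MuvB, went from 65.2 ± 2.1 (SD, n = 3) to 16.7 ± 0.7 and 22.1 ± 1.7 FPKM (log2 fold change -1.90 and -1.52, adjusted p = 2.45e-07 and 6.69e-07 by limma). FOXM1, a driver of mitotic genes, went from 78.1 ± 2.0 to 21.8 ± 1.0 and 28.0 ± 3.6 FPKM. E2F5, a repressor E2F that works with p130 and p107, was the one that rose, from 26.8 ± 1.0 to 44.8 ± 2.3 and 48.9 ± 4.1 FPKM.

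Of 18 listed kinases, cyclins and inhibitors upstream of the pocket proteins, 17 were tested, and 9 fell and 4 rose after Si-FIBP#1, while 10 fell and 5 rose after Si-FIBP#2, with medians of -0.31 and -0.37. The numbers that rose are near the background, since 27.8% and 31.1% of all tested genes rose with the siRNAs in turn, where 19.9% and 17.7% fell. CCNE1, the G1/S cyclin that activates CDK2, rose from 11.2 ± 0.5 (SD, n = 3) to 25.2 ± 0.6 and 20.01 ± 4.62 FPKM. CCNA2, the cyclin of S and G2 phase, fell from 66.7 ± 0.9 to 22.0 ± 2.4 and 31.2 ± 3.0 FPKM. CDKN2C, an inhibitor of CDK4 and CDK6, fell from 41.1 ± 2.6 to 14.4 ± 1.2 and 19.0 ± 1.2 FPKM. CDKN1C, an inhibitor of cyclin-dependent kinases, counts among those that rose, at 0.67 ± 0.34, 1.54 ± 0.30 and 1.54 ± 0.27 FPKM in the 3 groups, but no Scramble sample reached 1 FPKM, so it entered the test only through the groups where it is high and its call is no support for a rise.

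Of 15 chromatin partners of RB1, 6 fell and 3 rose after Si-FIBP#1 and 7 fell and 3 rose after Si-FIBP#2 (medians -0.05 and -0.18). Over all tested genes 19.9% and 17.7% fell and 27.8% and 31.1% rose, so the share that fell was above the background and the share that rose below it, neither of which was tested. DNMT1, the maintenance DNA methyltransferase, fell from 88.1 ± 5.4 (SD, n = 3) to 38.8 ± 0.9 and 52.4 ± 1.2 FPKM, and SUV39H1, a histone H3 lysine methyltransferase, fell from 8.26 ± 0.36 to 4.74 ± 0.62 and 4.78 ± 0.37. SMARCA2, an ATPase of SWI/SNF complexes, was the only partner that rose with each siRNA, from 9.64 ± 0.14 to 15.3 ± 1.2 and 17.4 ± 1.1 FPKM. The other partners counted as higher passed with only 1 of the siRNAs.

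Genes that DREAM is known to repress fell with each siRNA, except CCNE1. Of 25 targets of the CHR class, which act in G2 and mitosis, all 25 fell with each siRNA (medians -1.51 and -1.11), and of 25 of the E2F class, which act in S phase, 24 fell and 1 rose (medians -1.44 and -1.17), where 19.9% and 17.7% of all tested genes fell with the siRNAs in turn. KIF20A, a mitotic kinesin, went from 53.0 ± 1.9 (SD, n = 3) to 13.3 ± 0.6 and 15.7 ± 1.5 FPKM, and CDC20, an activator of the anaphase-promoting complex, from 172 ± 7 to 45.9 ± 1.9 and 59.3 ± 5.0. In the E2F class, RRM2, a subunit of ribonucleotide reductase, went from 132.4 ± 2.8 to 29.7 ± 2.3 and 36.9 ± 7.1 FPKM, and TYMS, thymidylate synthase, from 213 ± 5 to 45.7 ± 2.1 and 73.4 ± 8.8. The E2F-class gene that rose was CCNE1, described above. CCNE1, CCNE2 and E2F1 also stand on another of the lists. These lists were drawn up with earlier results on the same samples known, and their part in the values of the 10 genes was not tested.

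**Figure D5:**
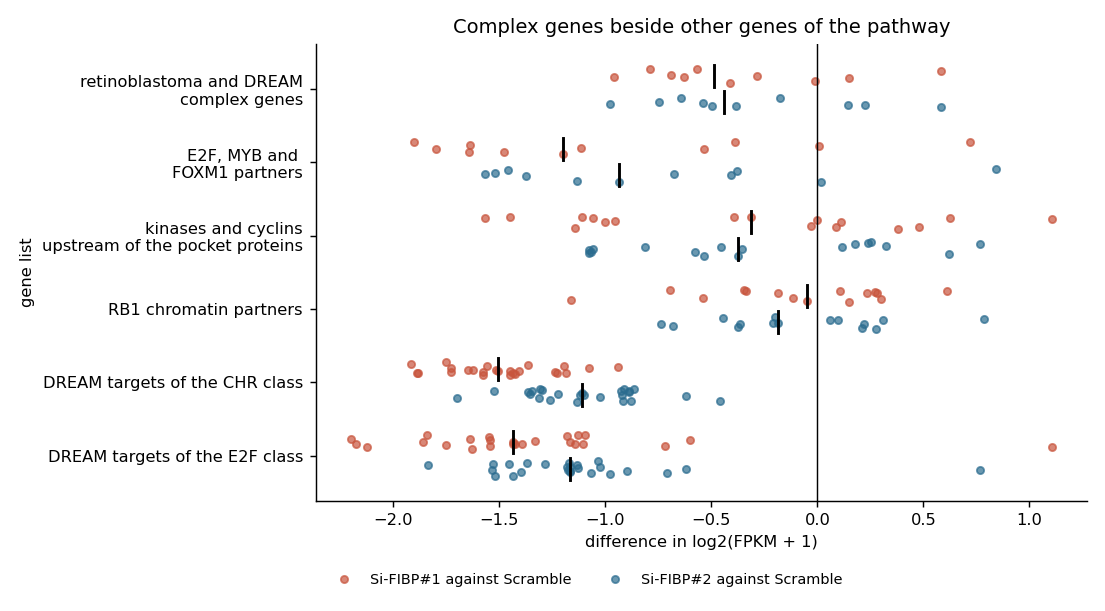
Difference in log2(FPKM + 1) from Scramble (horizontal axis) for the 10 genes and 5 other gene lists, with a point for each tested gene and siRNA and a bar at the median. The median of the 10 genes (-0.49 and -0.44) lies between that of the RB1 chromatin partners (-0.05 and -0.18) and those of the DREAM target lists.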

How the data were processed

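RNA-seq of poly(A) RNA from 9 H1299 samples was used, 3 for each of Scramble, Si-FIBP#1 and Si-FIBP#2, grouped by their labels. The authors deposited 1 table of FPKM per transcript and sample, rounded to 2 decimals. The unit was inferred from the values, the submitters' processing notes name HISAT2 and StringTie, and versions, genome build, annotation release and use of strand are not given in the sources used here. Of 244443 transcripts, 14956 were assembled by the authors. FPKM were summed per gene identifier, and every gene that reached 1 FPKM in 3 or more samples entered a limma 3.58.1 fit (R 4.3.3, mean-variance trend, two-sided) of log2(FPKM + 1) with the 9 samples together and Benjamini-Hochberg adjustment over all 14985 genes. A fold change on this scale understates that of low genes. Transcripts were tested likewise. Lists were described by counts and medians.

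The genes and lists were chosen with earlier results of these data known. Named were the 10 genes, FIBP, up to 4 genes of each other pathway list (the 2 largest rises and the 2 largest falls among those passing with each siRNA in the same direction), the 3 genes most correlated with each pocket protein gene, and some of the transcripts with a mean of at least 1 FPKM in a group. Not all transcripts at that level are described. ENST00000554076 of LIN52, which lies below it, is named only for its turn of sign. Neighbouring and overlapping genes and the ratios were added after the values were seen. Positions are from GENCODE 29 (GRCh38), joined by Ensembl identifier, and 58453 of 60966 gene identifiers matched. ENST00000674221 is not in that release. No pair of samples held identical tables. Steps were tested on simulated data. Depth was estimated from the spacing of low values, so no counting interval is given. Further steps used Python 3.11.15, pandas 2.3.3 and matplotlib 3.10.9.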

Additional observations from a re-analysis of the deposited data

Results flagged for a closer look

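LIN54 was the 1 gene of the 10 that passed between the siRNAs, where 9.58% of all tested genes were higher with Si-FIBP#2 and 5.8% lower. A count of 1 in 10 is near this background. Its level was higher with Si-FIBP#2 than with Si-FIBP#1 by 0.31 on the log2 scale (adjusted p = 0.0382 by limma for the difference itself). All 3 Si-FIBP#2 samples were above all 3 Si-FIBP#1 samples. The same held for RB1 and RBL2, which did not pass (adjusted p = 0.303 and 0.177 by limma). How many of all tested genes separate in this way was not computed, so the number of such genes among the 10 cannot be weighed. Over 18 alternatives the LIN54 difference ran from 0.25 to 0.36 and its adjusted p from 0.0264 to 0.13, and the call was lost in 13 of them. With 3 samples per group, no single sample was tested for standing apart from its group.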

How the results depend on the processing

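Each comparison of single groups was recomputed under 18 alternatives and that of both siRNAs together under 17. RBL1, LIN9, LIN37, LIN52, LIN54 and RBBP4 kept their direction and their call against Scramble in all of them. RB1 kept them with Si-FIBP#1, with log2 fold changes from -0.36 to -0.24. With Si-FIBP#2, 6 genes instead of 7 passed as lower without a filter, with only the groups compared, with the replicate block or without the variance trend, and 5 with annotated transcripts only, where TFDP1 was lost too. Leaving out Scramble replicate 1 raised the genes passing as higher with Si-FIBP#2 from 1 to 2, and over all omitted samples the range was 1 to 2.

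The replicate numbers did not pair the samples across all 3 groups. Deviations of same-numbered samples correlated from -0.0568 to 0.1025, and in the comparisons with Scramble not every sample correlated best with its own number. Between Si-FIBP#1 and Si-FIBP#2 each sample did, at 0.0526, 0.0967 and 0.0456 for replicates 1, 2 and 3. With the replicate block, RB1 with Si-FIBP#2 (adjusted p = 0.0735) and the LIN54 difference (adjusted p = 0.0581) no longer passed, which left 6 of 10 genes lower for Si-FIBP#2, and 0 that differed between the siRNAs.

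LIN54 was the 1 gene that differed between the siRNAs, and this count became 0 without a filter, with median-ratio scaling, with only the groups compared or with annotated transcripts only, and was 0 to 1 when single samples were left out. LIN52 passed 2-fold, making 1 gene instead of 0, with a pseudocount of 0.1 or median-ratio scaling in each comparison with Scramble, and with TPM for Si-FIBP#1 and for both together, and the count was 0 to 1 with single samples left out (1 without Si-FIBP#1 replicate 3 for Si-FIBP#1, without Scramble replicate 1 for Si-FIBP#2, and without either for both together). With a pseudocount of 0.1, the tested genes past 2-fold were 1498 for Si-FIBP#1, 1411 for Si-FIBP#2, 1418 for both and 172 between the siRNAs. Without the fold threshold they were 7146, 7309, 7938 and 2304. Leaving out single samples gave 1268 (without Si-FIBP#2 replicate 3) to 2821 (without Si-FIBP#2 replicate 2) genes that differed between the siRNAs, with 1357, 1354 and 1476 without Si-FIBP#1 replicate 1, Si-FIBP#1 replicate 2 and Si-FIBP#2 replicate 1, and 73 to 128 (without Si-FIBP#2 replicate 2) past 2-fold.

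Signs turned only for differences that did not pass. For RBL2, the change with Si-FIBP#1 ran from -0.0554 to 0.0536 with single samples left out, and that with both siRNAs was -0.0289 with median-ratio scaling. Between the siRNAs, LIN37 was at -0.0411 with median-ratio scaling and ran from -0.0441 to 0.0601 with single samples left out, LIN52 was at 0.021 with TPM and ran from -0.0969 to 0.0675, RBL1 ran from -0.0247 to 0.134, TFDP2 from -0.0573 to 0.152, and FIBP from -0.103 to 0.26. With a pseudocount of 0.1, the transcripts ENST00000467667 (-0.0532, both siRNAs), ENST00000479040 (0.0703, both) and ENST00000554076 (0.145, Si-FIBP#1, 0.11, both, and -0.0714 between the siRNAs) turned sign. The cause of these shifts was not tested.

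FPKM carry no counts, so the precision rests on 3 samples per group, and at a few FPKM, as for LIN9, a gene sum passed where none of its transcripts did.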
